A study of Sus scrofa with 6 samples.

Results

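The genes described here are 57 listed genes of DNA replication and repair, measured in porcine satellite cells at an earlier and a later time of differentiation. They were chosen by name and function, with earlier results of these data known. A gene was counted as measured when a pig Ensembl identifier in the deposited table carried its symbol. Of the 57 genes, 44 had a row among the 28266 rows of the table. The other 13 were MCM6, MCM7, MCM10, GINS1, GINS2, GINS4, PCNA, POLE, FEN1, RRM2, TYMS, TK1 and DUT, which are not analysed here. For nucleotide supply RRM1 was therefore the only measured gene, and the PCNA sliding clamp itself was represented by its loader alone.

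Satellite cells are the stem cells of skeletal muscle, which multiply in growth medium and fuse into myotubes once differentiation is induced. According to the methods of the study the cells came from limb muscle of 3-day-old male Yorkshire pigs and were differentiated in medium with horse serum. Both groups used here have 3 libraries, replicates 4, 5 and 6. The earlier group was harvested at 24 h of differentiation. The later group is given as 48 h in the sample labels and as 36 h in the methods, so it is called the later group. The libraries carry the letter N in their titles, with which the study marks cells given a negative control siRNA, but the labels themselves name none. Nothing in the labels says that the replicates came from separate cultures or animals, so the p-values measure the spread between these libraries, which may be technical.

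Before S phase, the origin recognition complex (ORC), CDC6 and CDT1 load the MCM helicase onto origins, which is called licensing. CDC7 kinase, CDC45 and the GINS complex then turn the helicase on, polymerase alpha-primase makes the primers, and RFC loads the sliding clamp on which polymerases delta and epsilon work. RPA covers the exposed single strands, ribonucleotide reductase supplies deoxynucleotides, and the recombination and Fanconi anaemia proteins deal with stalled forks and broken ends. Many of these genes are transcribed under E2F at the entry to S phase, and muscle cells stop making DNA when they differentiate.

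The libraries held 16250222 to 16774534 recovered fragments at 24 h and 17873849 to 21723087 in the later group. Values are FPKM, fragment numbers corrected for gene length and library total. The summed FPKM of 9 muscle markers was between 11110 and 14970 at 24 h and between 20870 and 22710 in the later group. By limma 7 of the 9 (77.8%) were higher there (adjusted p under 0.05), against 16.5% of all genes. The other 2, MYOD1 (-0.29) and MYF5 (-0.48), had negative log2 changes that missed the threshold. PAX7, ITGA7 and CKM were not analysed here. KDR, PTPRC, TYROBP, KRT8 and PGR, which mark endothelial, blood and epithelial cells, were listed at 0 in all 6 libraries. PECAM1, an endothelial marker, was at 1.02 to 1.67 FPKM over the 6 libraries, and CD68, a macrophage marker, was at 2.16 to 2.40 at 24 h and at 0.634 to 1.61 later (adjusted p = 0.0523). Of the epithelial markers CDH1 alone was tested and was higher in the later group (0.107 to 0.430 FPKM, then 2.35 to 4.36), having passed the FPKM minimum of 1 through that group alone. The summed FPKM of the 5 fibroblast markers was between 928 and 999 at 24 h and between 823 and 1029 in the later group, with DCN (-1.48), LUM (-1.19) and COL1A2 (-0.62) lower and COL3A1 (0.88) higher by limma and PDGFRA too low to test. Their part in the results below was not tested. The median change of the 14060 genes tested was -0.16 on the log2(FPKM + 1) scale, and -0.003 after median-ratio scaling of the libraries. A change of a gene below is therefore best read against -0.16.

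Transcripts of 11 of the 39 replication and repair genes tested were lower in the later group and 0 were higher. These were FANCD2, CDC45, MCM3, GMNN, RPA2, POLA1, GINS3, RRM1, PRIM2, RFC2 and RFC1, and they came from each of the 7 roles into which the list was divided. The 11 genes are 28.2% of those tested, against 34.4% of all 14060 genes called lower, so the share called lower was not above the background. No gene of the list was called higher by limma, against 16.5% of all genes, and 0 were higher at an unadjusted p under 0.05 as well. Only with quantile normalization or median-ratio scaling of the libraries, or without 24 h replicate 6, were members called higher, 2, 2 and 1 of them. By sign alone, 34 of the 39 changes were negative and 5 were positive. Their median was -0.35, beside -0.16 for all genes. With median-ratio scaling it was -0.20 beside -0.003, and without 24 h replicate 6 it was -0.15 beside -0.14.

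A drop of at least 1 on the log2 scale with an adjusted p under 0.05 was seen for FANCD2, CDC45 and MCM3, 3 of 39 genes, against 4.77% of all genes tested. In 19 of the 39 genes (48.7%) the 3 later values all lay below the 3 values at 24 h, against 42.6% of all genes. In 1 gene (2.56%), POLD2, they all lay above, against 21.0% of all genes. The groups overlapped in the other 19 genes. In bulk RNA, fewer cells in S phase and less RNA of a gene per cell cannot be told apart. The 5 genes under a mean FPKM of 1, ORC1, CDC6, POLD3, BRCA2 and EXO1, were not tested. POLE2 and CLSPN passed that minimum only through the 24 h group, since their later means were under 1. Neither is among the genes called lower, but both are among the 19 whose later values all lay below, so that share leans on them.

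**Figure D1:**
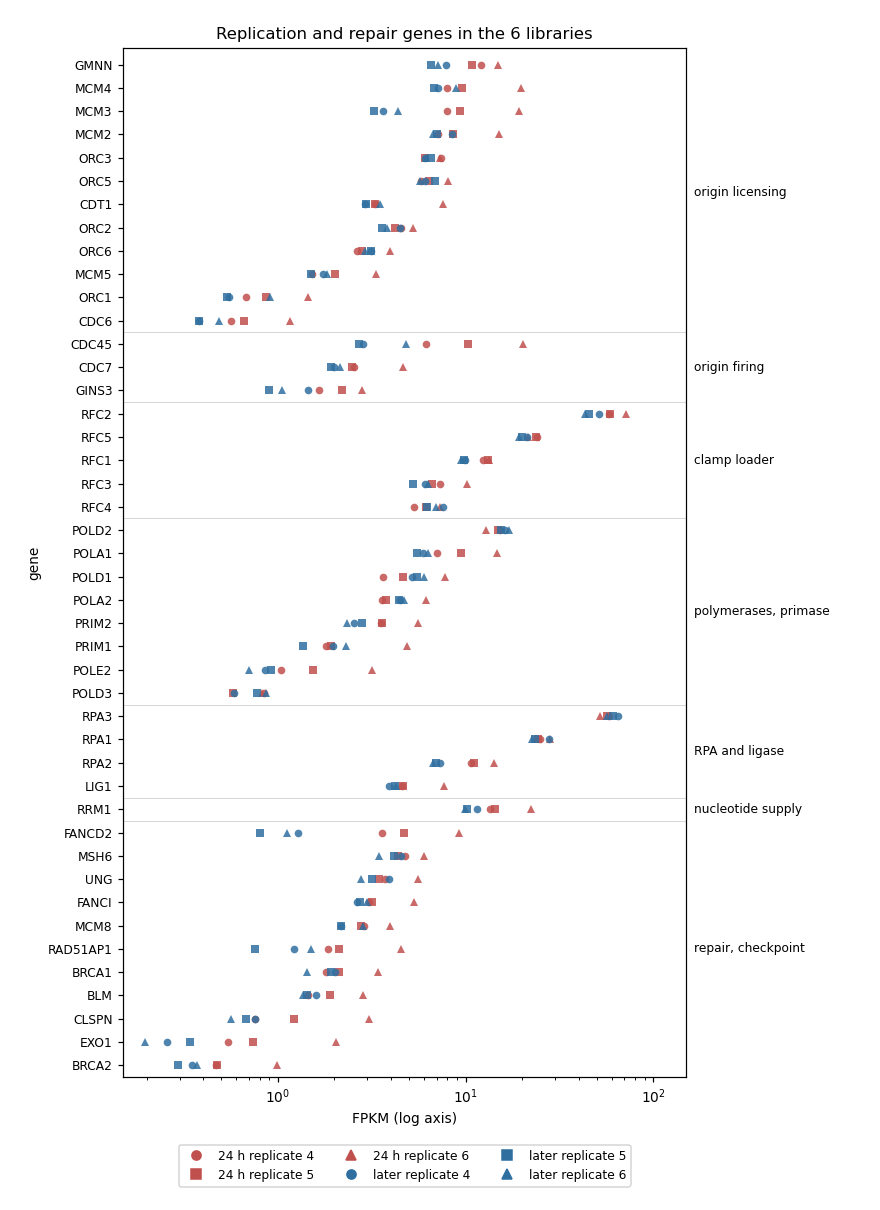
FPKM (x, log axis) of the 44 measured genes (y, grouped by role) in each library, with 24 h in red and the later group in blue and a symbol for each replicate number. The red triangle, 24 h replicate 6, lies to the right of the other 24 h points in 39 of the 44 genes, and FANCD2, MCM3, CDC45 and RPA2 show a gap between the groups.

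Among the licensing genes, MCM3 and GMNN were lower in the later group and the other 8 tested were not past the threshold. MCM3, a subunit of the helicase ring, has its gene on chromosome 7 (RefSeq, build Sscrofa11.1, positions 46084648 to 46104425). It was at 7.96, 9.36 and 19.2 FPKM in 24 h replicates 4, 5 and 6, and at 3.61, 3.24 and 4.37 in the later replicates. Every later library was below every 24 h library, and 24 h replicate 6 was the highest by far. The change was -1.39 ± 0.30 (SE) on the log2(FPKM + 1) scale with an adjusted p of 0.00882. Without 24 h replicate 6 it was -1.03, with an adjusted p of 0.00161.

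GMNN encodes geminin, the inhibitor that holds CDT1 until the next cycle, and lies on chromosome 7 from 19585968 to 19595346. It stood at 12.1, 10.8 and 14.9 FPKM at 24 h and at 7.83, 6.54 and 7.16 in the later group. The groups did not overlap, and the 24 h libraries were closer together than for MCM3. The change was -0.73 ± 0.13 (adjusted p = 0.00419). CDT1, the loading factor that geminin binds, was at 3.31, 3.29 and 7.62 FPKM at 24 h and at 2.90, 2.96 and 3.48 later. Its groups overlapped, since later replicate 6 was above 24 h replicates 4 and 5, and the change of -0.40 ± 0.27 had an adjusted p of 0.255.

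The other helicase subunits were not called. MCM4 was at 8.01, 9.57 and 19.6 FPKM at 24 h and at 7.14, 6.80 and 8.90 later. MCM2 was at 7.11, 8.54 and 15.1, then at 8.51, 7.06 and 6.69. MCM5 was lower throughout, at 1.53, 2.01 and 3.33 and then at 1.74, 1.504 and 1.83. All 3 overlapped between the groups, because 24 h replicates 4 and 5 lay in or close to the later range while replicate 6 stood above it. Their changes were -0.55 ± 0.30, -0.36 ± 0.25 and -0.26 ± 0.20, with adjusted p values of 0.165, 0.260 and 0.327.

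No tested subunit of ORC, the complex that marks origins, was called. ORC6 had the smallest change of the licensing genes in the fit to all libraries, with 2.65, 2.80 and 3.97 FPKM at 24 h and 3.14, 3.14 and 2.93 later. Replicates 4 and 5 at 24 h were below all later libraries and replicate 6 was above them. The change of ORC6 was -0.01 ± 0.14 (adjusted p = 0.956), and it turned positive with median-ratio scaling (0.12), quantile normalization (0.16), without 24 h replicate 6 (0.13) and without later replicate 6 (0.01). ORC2, ORC3 and ORC5 had changes of -0.18, -0.12 and -0.09 that missed the threshold and turned positive in at least 1 of the 2 other scalings. For ORC2 only 94 fragments at 24 h and 98 later were counted over a gene model of 0.410 kb, so its FPKM is the least precise of the tested ORC subunits.

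All 3 measured genes of origin firing had later values below every 24 h value, and CDC45 and GINS3 passed the threshold. Of all genes tested, 42.6% lay wholly lower and 34.4% were called lower, and 3 genes are too few to set against those shares. CDC45, which joins the MCM ring and GINS to form the active helicase, lies on chromosome 14 from 51133111 to 51158604. It was at 6.14, 10.3 and 20.1 FPKM at 24 h and at 2.84, 2.70 and 4.80 in the later group. The 24 h libraries were spread more than 3-fold, yet the lowest of them was above the highest later library. The change was -1.46 ± 0.39 with an adjusted p of 0.0199. The call was lost when 24 h replicate 5, later replicate 4 or later replicate 5 was left out, with 0.0696 as the highest adjusted p.

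GINS3, a subunit of GINS, was at 1.66, 2.204 and 2.80 FPKM at 24 h and at 1.45, 0.893 and 1.06 later. The nearest libraries of the groups, 1.66 and 1.45, were close, and the change was -0.59 ± 0.17 (adjusted p = 0.0280). Its call was lost without 24 h replicate 5, later replicate 5 or later replicate 6, where the adjusted p reached 0.0973. CDC7, the kinase that phosphorylates the MCM ring, was at 2.55, 2.49 and 4.63 and then at 1.98, 1.93 and 2.15. Its groups did not overlap, but the change of -0.45 ± 0.20 had an adjusted p of 0.0977.

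Of the 5 subunits of the clamp loader RFC, the large subunit RFC1 and the small subunit RFC2 were lower in the later group. RFC1 was at 12.3, 13.2 and 13.4 FPKM at 24 h and at 9.92, 9.76 and 9.46 later. These were tight groups with no overlap, and 24 h replicate 6 did not stand apart. The change of -0.38 ± 0.07 had an adjusted p of 0.00447, one of the lowest in the list although the difference was modest. RFC2 had the highest FPKM of the RFC genes, with 57.9, 58.9 and 71.7 at 24 h and 51.6, 45.6 and 43.1 later. It changed by -0.42 ± 0.11 (adjusted p = 0.0173), and the call was lost with median-ratio scaling and without later replicate 5 or 6, up to an adjusted p of 0.0707.

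RFC3 and RFC5 also had no overlap between the groups but missed the threshold, with changes of -0.38 ± 0.16 (adjusted p = 0.0786) and -0.19 ± 0.07 (adjusted p = 0.0643). RFC5 was higher at 24 h in replicates 4 and 5 (24.1 and 23.8 FPKM) than in replicate 6 (21.5), the reverse of most genes here, and was called lower once replicate 6 was left out (adjusted p = 0.0228). RFC4 had the smallest change of the complex and a positive one. It was at 5.28, 6.15 and 7.26 FPKM at 24 h and at 7.59, 6.23 and 6.97 later, an overlap through replicate 6. Its change was 0.14 ± 0.12 (adjusted p = 0.381), and it was called higher with quantile normalization.

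Polymerase alpha-primase, the enzyme that starts each new strand, held the 2 called genes of the polymerase group, POLA1 and PRIM2. POLA1, its catalytic subunit, was at 7.03, 9.47 and 14.7 FPKM at 24 h and at 5.95, 5.52 and 6.29 later. The groups did not overlap, although 24 h replicate 4 was near the later range. The change of -0.67 ± 0.23 had an adjusted p of 0.0466, close to the threshold, and the range over the alternatives was 0.0101 to 0.128. PRIM2, the large primase subunit, was at 3.53, 3.58 and 5.56 and then at 2.55, 2.79 and 2.33, a change of -0.53 ± 0.16 (adjusted p = 0.0321, 0.0257 to 0.0908 over the alternatives).

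The partners of these subunits did not follow them past the threshold. POLA2, the accessory subunit, had the smallest change of the group, with 3.60, 3.76 and 6.16 FPKM at 24 h and 4.49, 4.39 and 4.68 later. The later libraries all lay between 24 h replicates 4 and 5 below and replicate 6 above. The change was 0.03 ± 0.18 (adjusted p = 0.888), and it turned to -0.08 without 24 h replicate 4 and to -0.06 without 24 h replicate 5. PRIM1, the catalytic primase subunit, was at 1.80, 1.91 and 4.88 and then at 1.97, 1.36 and 2.32, with a change of -0.35 ± 0.30 that was -0.002 without 24 h replicate 6.

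Of polymerase delta, which makes the lagging strand, the listed subunits POLD1 and POLD2 were tested and neither was called. POLD4, a subunit from another list, was called higher and is described below. POLD2, an accessory subunit, was the 1 gene of the list whose later values all lay above the 24 h values. It was at 15.2, 14.9 and 12.8 FPKM at 24 h and at 16.2, 15.4 and 17.0 later, so that the nearest libraries of the groups differed little. Its change of 0.17 ± 0.08 missed the threshold (adjusted p = 0.129) and passed it as higher with median-ratio scaling and quantile normalization. The catalytic subunit POLD1 was at 3.62, 4.65 and 7.73 and then at 5.19, 5.52 and 6.03. Its change of 0.11 ± 0.22 turned to -0.10 without 24 h replicate 4 and was 0.36 and called higher (adjusted p = 0.0405) without 24 h replicate 6. POLE2, an accessory subunit of polymerase epsilon, was at 1.04, 1.54 and 3.18 FPKM and then at 0.850, 0.923 and 0.701, with a change of -0.62 ± 0.26 (adjusted p = 0.0880).

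RPA, the trimer that covers single-stranded DNA, showed a fall in its middle subunit alone among the 3, as judged by the threshold. RPA2 lies on chromosome 6 from 85032604 to 85045899 and was at 10.7, 11.13 and 14.2 FPKM at 24 h. In the later libraries it was at 7.30, 6.96 and 6.74, well apart from the 24 h group. The change of -0.69 ± 0.11 had the lowest adjusted p of the 39 genes, 0.00343. RPA1, the large subunit, was at 25.0, 24.3 and 28.3 and then at 27.8, 23.5 and 22.6, so the groups overlapped. It had the smallest change of this group, -0.07 ± 0.10 (adjusted p = 0.586), positive with median-ratio scaling (0.10) and quantile normalization (0.02).

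RPA3, the small subunit, was at 58.3, 56.4 and 52.1 FPKM at 24 h and at 64.9, 60.9 and 56.5 later. The lowest later value lay between the 24 h values, and the change of 0.13 ± 0.08 had an adjusted p of 0.204, past the threshold as higher with median-ratio scaling. LIG1, the ligase that joins Okazaki fragments, was at 4.596, 4.64 and 7.72 and then at 3.90, 4.20 and 4.28, without overlap. Its change of -0.34 ± 0.18 had an adjusted p of 0.150.

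RRM1, the large subunit of ribonucleotide reductase, was lower in the later group. It was at 13.6, 14.4 and 22.2 FPKM at 24 h and at 11.5, 10.2 and 9.91 later, with no overlap. The change was -0.59 ± 0.18 with an adjusted p of 0.0315, and the range over the alternatives was 0.0118 to 0.0926.

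FANCD2 had the largest change of the list and was the 1 called gene among the 9 tested for repair and checkpoint. It encodes the Fanconi anaemia protein that is clamped onto DNA with FANCI at crosslinks and stalled forks, and lies on chromosome 13 from 66241951 to 66308601. Its FPKM was 3.58, 4.71 and 9.24 at 24 h and 1.29, 0.802 and 1.11 in the later group. The lowest 24 h library was well above the highest later one. The change was -1.65 ± 0.29 on the log2(FPKM + 1) scale (adjusted p = 0.00448), and the later mean was 0.183 times the 24 h mean, or 0.257 times the mean of 24 h replicates 4 and 5 alone. The fragments fell from 1288 over the 3 libraries at 24 h to 286 over the 3 later ones.

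FANCI, its partner, was at 3.07, 3.18 and 5.32 FPKM at 24 h and at 2.65, 2.73 and 2.98 later. The groups did not overlap, but 2.98 and 3.07 were close and the change of -0.33 ± 0.18 had an adjusted p of 0.165. RAD51AP1, an accessory protein of homologous recombination, was at 1.85, 2.12 and 4.55 and then at 1.21, 0.755 and 1.498. It had a change of -0.78 ± 0.28 and an adjusted p of 0.0507, just outside the threshold, with a range of 0.0220 to 0.153 over the alternatives.

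The other repair genes tested had changes between -0.26 and -0.59, with none past the threshold. CLSPN encodes claspin, the adaptor of the replication checkpoint, and was at 0.757, 1.22 and 3.04 FPKM and then at 0.751, 0.679 and 0.564. Its lowest 24 h value all but touched the highest later one, and the change of -0.59 ± 0.30 had an adjusted p of 0.138. MSH6, a mismatch recognition protein, had the smallest change of the repair genes, with 4.74, 4.38 and 6.01 FPKM and then 4.53, 4.14 and 3.45. It changed by -0.26 ± 0.14 (adjusted p = 0.152). The groups overlapped for MSH6, for UNG, which removes uracil from DNA, for the helicases MCM8 and BLM, and for BRCA1.

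The 5 genes under the FPKM minimum rested on few fragments. EXO1, a nuclease of mismatch and break repair, was at 0.545, 0.736 and 2.05 FPKM at 24 h and at 0.256, 0.340 and 0.197 later, from 155 and 46 fragments. The groups did not overlap for EXO1, for CDC6, the licensing factor (0.566 to 1.16, then 0.380 to 0.485), or for BRCA2, a mediator of homologous recombination (0.467 to 0.994, then 0.292 to 0.372). ORC1 and POLD3 overlapped. Of all genes tested, 42.6% lay wholly lower, and no share was computed for genes under the minimum. In a fit with no minimum none of the 5 was called, and the adjusted p of EXO1 was 0.0861.

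The balance of subunits within a library does not change when all its genes are scaled by a common factor, so ratios of FPKM were compared. Quantile normalization can change that balance, and the ratios were not recomputed with it. The FPKM ratio of MCM3 to MCM4 was 0.994, 0.977 and 0.980 in the 24 h replicates and 0.505, 0.476 and 0.491 in the later ones. The ratio was nearly constant within each group, including 24 h replicate 6, where both genes were at least 2 times higher than in the other 24 h libraries. On the log2 scale it dropped by 1.004, and the exact two-sided permutation p was 0.1, the smallest that 3 against 3 libraries can give (0.182 after Benjamini-Hochberg adjustment over the 20 ratios computed). MCM4, MCM3, MCM2 and MCM5 stood in that order in all 3 libraries at 24 h. MCM3 was below both MCM4 and MCM2 in all 3 later libraries. The ratio of MCM5 to MCM2, from 0.215 to 0.235 at 24 h and from 0.204 to 0.273 later, overlapped.

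Of the 20 ratios, 11 did not overlap between the groups. Of all single genes tested, 42.6% lay wholly lower and 21.0% wholly higher in the later group. No share over other gene pairs was computed. Several of the 11 share a gene, such as MCM3 or RFC4, and the pairs were chosen with earlier results of these data known. The FPKM ratio of FANCD2 to FANCI was 1.17, 1.48 and 1.74 at 24 h and 0.486, 0.294 and 0.374 later, so FANCD2 went from above its partner to below it. RPA2 to RPA1 stood at 0.429, 0.458 and 0.501 and then at 0.262, 0.296 and 0.298. POLA1 to POLA2 went from 1.95, 2.52 and 2.38 to 1.33, 1.26 and 1.34. None of these overlapped, and each had the same exact permutation p of 0.1 (0.182 adjusted). RFC3 was above RFC4 in all 3 libraries at 24 h and below it in all 3 later ones, with ratios of 1.07 to 1.41 and of 0.80 to 0.90. The order of RPA3, RPA1 and RPA2 was the same in all 6 libraries, as was that of POLA1, POLA2, PRIM2 and PRIM1. These levels rest on gene models that ran from 0.410 kb (ORC2) to 6.77 kb (BRCA2), as implied by the FPKM values, and levels of different genes depend on those models.

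**Figure D2:**
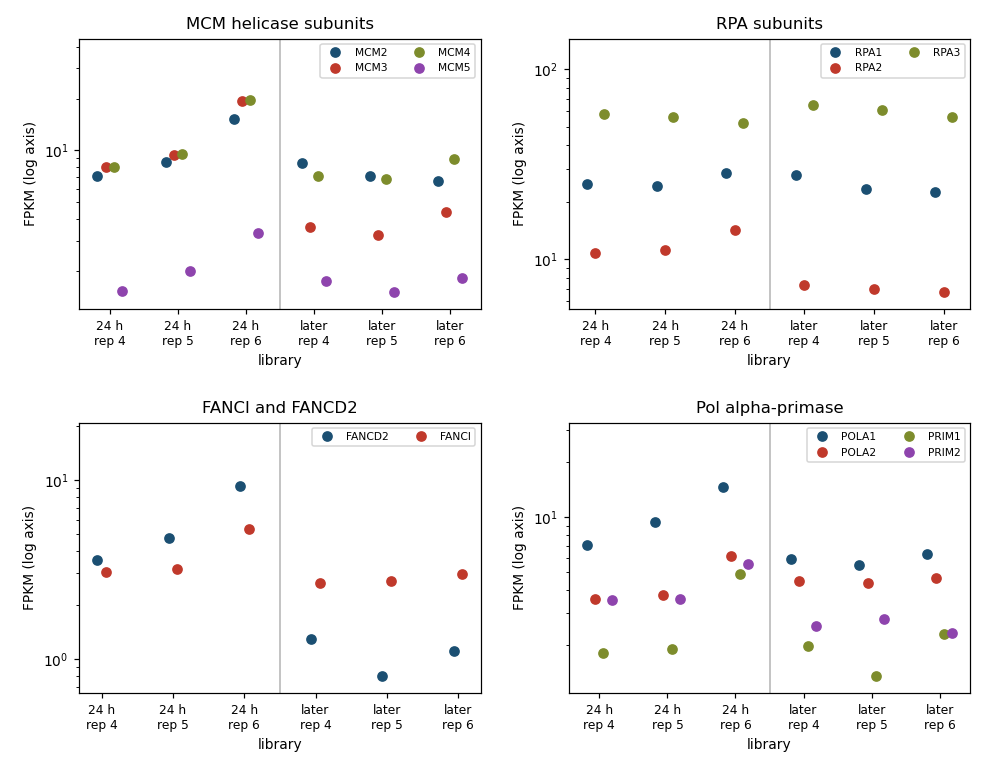
FPKM (y, log axis) of subunits of 4 complexes in each of the 6 libraries (x), with 24 h left and the later group right of the grey line and 1 color per gene. MCM3 is level with MCM4 at 24 h and well below it later, FANCD2 crosses FANCI, and the order of the 3 RPA subunits is the same throughout.

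The 24 h group was not uniform for these genes. Replicate 6 was the highest of the 3 in 39 of the 44 genes (88.6%), where it was highest in 50.5% of all genes tested. In the lists described below, replicate 6 was highest in 24 of 27 other replication genes and 11 of 14 cell cycle regulators. It was highest in 24 of 35 other recombination and repair genes, 6 of 6 nucleotide enzymes and 14 of 31 end-joining and excision genes. These counts include genes not tested, and the trait was not particular to the listed genes. The FPKM of replicate 6 over the mean of replicates 4 and 5 had a median of 1.67 in the list, from 0.855 for POLD2 to 3.19 for EXO1, and a median of 1.04 over all genes. It was at least 1.5 times that mean in 26 genes and at least 2 times in 11. The median log2(FPKM + 1) of the 44 genes was 2.22, 2.40 and 2.94 in 24 h replicates 4, 5 and 6 and 2.25, 2.07 and 2.22 in the later replicates. The median in 24 h replicate 4 was thus inside the range of the later group.

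Of the 9 muscle markers, 5 were lowest of the 24 h group in that library (MYH3, MYMK, DES, ACTC1 and TNNT1) and 4 were highest (MYOD1, MYF5, MYF6 and CDH15). MYH3, the embryonic myosin heavy chain, was at 151 FPKM in 24 h replicate 6, against 677 and 517 in replicates 4 and 5 and 2052 to 2499 in the later group. MYMK, the fusion protein myomaker, was at 210 FPKM there, against 702 and 549. The summed FPKM of the 9 muscle markers was 11110 in replicate 6 and 14970 and 14310 in replicates 4 and 5, with ACTC1 the largest term, and the part of these genes in the spread of the replication genes was not tested. Without replicate 6 all 11 called genes kept their call, RFC5 was added as lower and POLD1 as higher. Replicates 4 and 5 alone were both above all later libraries in 19 of the 39 genes tested (48.7%, 46.9% of all genes) and both below them in 5 (12.8%, 24.5% of all genes). The 19 include POLE2 and CLSPN, which passed the FPKM minimum only through the 24 h group.

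**Figure D3:**
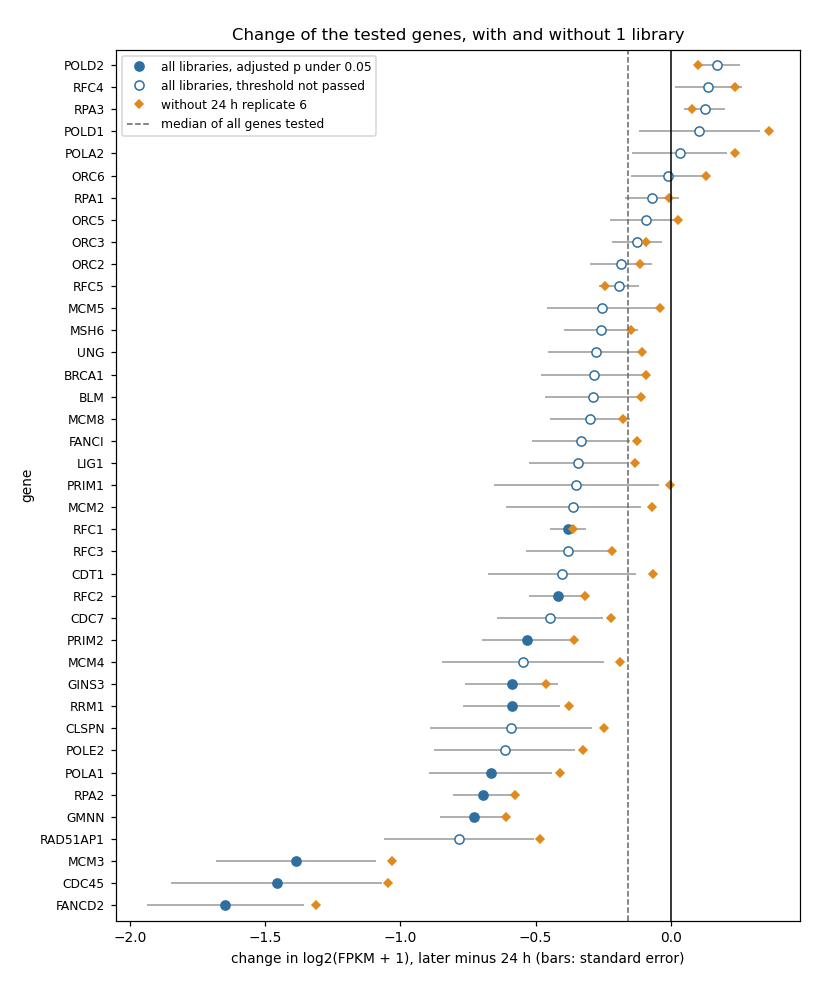
Change in log2(FPKM + 1), later minus 24 h (x), of the 39 tested genes (y, sorted), with the standard error of the fit to all libraries as a bar, filled circles for an adjusted p under 0.05, and diamonds for the fit without 24 h replicate 6. The diamonds lie nearer to 0 than the circles for FANCD2 (-1.31 beside -1.65), CDC45 and MCM3, ORC5 and ORC6 change sign (0.03 and 0.13), and the dashed line marks the median of all genes, -0.16.

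Further genes of the same processes were taken from lists of their own, also chosen with earlier results of these data known. Of 24 other replication genes tested, 7 were lower (29.2%, against 34.4% of all genes) and 1 was higher (4.17%, against 16.5%), with a median change of -0.33. The largest falls were in ASF1B, a chaperone that hands histones to new DNA (-1.64), UHRF1, which helps to copy DNA methylation (-1.18), RNASEH2B, a subunit of the enzyme that removes ribonucleotides (-1.02), and TOPBP1, which acts in origin firing and in the checkpoint (-0.88). ASF1B was at 3.15, 4.91 and 9.34 FPKM at 24 h and at 0.880, 1.01 and 1.23 later, apart in every library. UHRF1 lost its call without 24 h replicate 5 or without any 1 of the later libraries, up to an adjusted p of 0.0808, and TOPBP1 without later replicate 4 or 5.

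The 1 that was higher was POLD4, the smallest subunit of polymerase delta, named here after its values were seen. It was at 16.7, 14.97 and 15.1 FPKM at 24 h and at 28.3, 29.7 and 28.4 later. Both groups were tight, 24 h replicate 6 included, and the change of 0.84 ± 0.07 had an adjusted p of 0.000692. POLD1 and POLD2 of the same enzyme had changes of 0.11 and 0.17 that missed the threshold.

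Among 29 other genes of recombination, checkpoint and mismatch repair, 9 were lower and 2 higher, with a median of -0.30. These are 31.0% and 6.90% of those tested, against 34.4% and 16.5% of all genes. BARD1, the partner of BRCA1, fell by 0.95. CHEK1, the checkpoint kinase for which claspin is the adaptor, fell by 0.91, and EME1, a subunit of a junction nuclease, fell by 0.89. CHEK1 was at 1.27, 1.31 and 3.20 FPKM at 24 h and at 0.655, 0.301 and 0.536 later. CHEK1, EME1 and 1 more of the 9 had later means under 1 FPKM and passed the minimum only through the 24 h group, where they were high. CHEK1 lost its call without any 1 of the later libraries, and EME1 without later replicate 4 or 5. The 2 that were higher were XRCC3, a recombination protein (0.67), and PMS2, a mismatch repair protein (0.36), also named after their values were seen. PMS2 lost its call without 24 h replicate 5 or without later replicate 4 or 5, up to an adjusted p of 0.0621.

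Of 31 genes of end joining and excision repair, 11 were lower (35.5%, against 34.4% of all genes) and 5 were higher. The share called higher was not above the 16.5% of all genes. The median change was -0.08, above the -0.16 of all genes. DCLRE1C, the end-processing nuclease Artemis, fell by 0.77, and LIG4, the end-joining ligase, fell by 0.53. The gap-filling polymerases POLL and POLB were higher by 0.59 and 0.50, POLB losing its call without 24 h replicate 5 or without later replicate 4 or 5. The others called higher were PARP2, MPG and RAD23B, named after their values were seen. Each of these lost its call in 6 or more of the 15 alternatives, with adjusted p values of up to 0.118, 0.107 and 0.122.

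Another list held 13 tested cell cycle regulators, mostly of the entry into S phase but with CDK1 among them. Among these, 7 were lower (53.8%, against 34.4% of all genes) and 0 higher (0%, against 16.5%) by limma. At an unadjusted limma p under 0.05, 0 were higher as well, and the median change was -0.60. CDK1, the kinase of mitotic entry, was at 6.22, 7.96 and 15.9 FPKM at 24 h and at 1.44, 1.73 and 2.54 later, a change of -1.84 ± 0.32 (adjusted p = 0.00414). E2F8, a repressor of the family, and E2F1, an activator, changed by -1.46 and -1.43, E2F8 having passed the FPKM minimum only through the 24 h group, where it was high. MYBL2, a cofactor of cell cycle transcription, changed by -0.95 and lost its call in several alternatives. CDK1, E2F1 and E2F8 were all highest at 24 h in replicate 6. Of 6 other enzymes of nucleotide metabolism, 4 were lower (66.7%, against 34.4% of all genes) and 0 were higher (0%, against 16.5%). The 4 were NT5E, a surface nucleotidase, DGUOK, a mitochondrial deoxynucleoside kinase, DCTD, a deaminase, and DCTPP1, which breaks down dCTP. Their changes were -1.55, -0.44, -0.37 and -0.32. NT5E passed the minimum only through the 24 h group, where it was high. DCTD and DCTPP1 lost their calls with median-ratio scaling and when 1 of several libraries was left out.

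**Figure D4:**
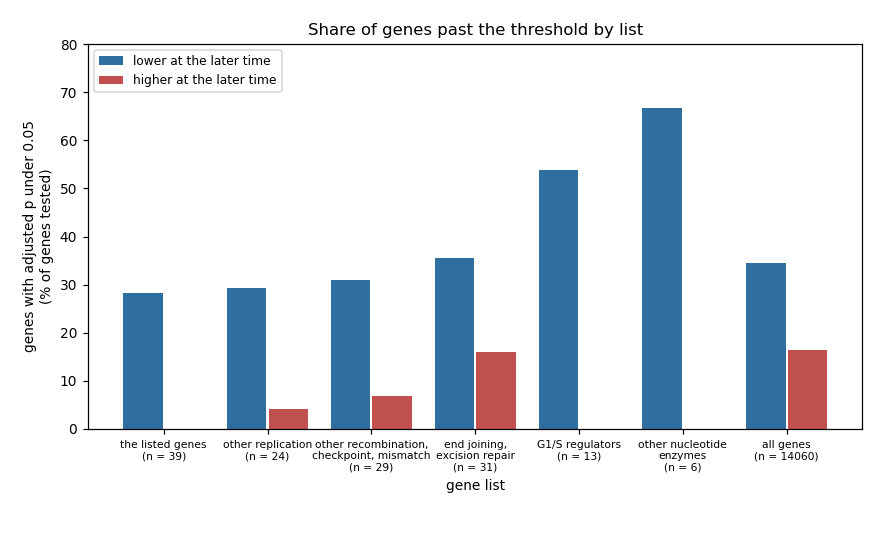
Percent of tested genes with a limma adjusted p under 0.05 (y, from 0) that were lower (blue) or higher (red) in the later group, for the listed genes, 5 further lists and all genes (x, with the number tested). The listed genes stand at 28.2% lower and 0% higher beside 34.4% and 16.5% of all genes.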

How the data were processed

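RNA-seq values of 6 libraries of porcine satellite cells were used, 3 at 24 h and 3 in the later group, assigned by the labels. The authors deposited FPKM values, 1 column per library and none pooled. Per the methods, reads were mapped with HISAT2 2.0.2, assembled with StringTie 1.2.2 and counted with HTSeq 0.6.1, whereas the submitters' processing notes name TopHat2, Cufflinks and HTSeq on Sscrofa11.1. Strandedness and the treatment of reads shared between genes are not given in the sources used here, so overlapping genes cannot be separated. The extraction text of the labels names endometrium, while the tissue label is skeletal muscle.

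Whole fragments were recovered from the steps of the FPKM values for 19543 of 19543 genes above 0 in at least 3 libraries (tolerance 0.02). The 14060 genes whose FPKM averaged 1 or more were compared in limma 3.58.1 (R 4.3.3) on the log2 scale after adding a pseudocount of 1, two-sided, with a mean-variance trend. Benjamini-Hochberg adjustment covered all of them, with a threshold of 0.05. This scale understates the change of low genes. The fit was tested on simulated data.

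Symbols were paired with 11804 of 25322 Ensembl identifiers, and positions were taken from RefSeq (Sscrofa11.1). Every listed gene is accounted for. Full statistics are given for up to 4 called genes per role, any gene called higher and the smallest change per role, and up to 4 non-overlapping called genes are named from each other list. For 1 of those lists, 1 gene that the rule would name is not reported here. The members and lists were chosen with earlier results of these data known, and so were the pairs whose ratios were compared, for which no test had been planned. A planned search for promoter motifs was not run, since no sequence was used here. As alternatives, the pseudocount was set to 0.1 or 0.01, the FPKM minimum was dropped or raised to 5, and the libraries were scaled by median ratios or by quantiles. Further fits used no trend, the replicate number as a block, limma voom on the recovered fragments and leaving out each library.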

Additional observations from a re-analysis of the deposited data

How the results depend on the processing

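Of the 11 genes called lower, FANCD2, GMNN, MCM3, RFC1 and RPA2 kept their call in each of the 15 alternatives that tested them, and CDC45, GINS3, POLA1, PRIM2, RFC2 and RRM1 lost it in at least 1. With median-ratio scaling 7 genes of the list were lower and 2 higher (POLD2, RPA3), and with quantile normalization 8 were lower and 2 higher (POLD2, RFC4). Leaving out 1 library gave between 5 (without later replicate 5) and 14 genes lower (without 24 h replicate 4), 0 to 1 higher, and a median change of -0.45 to -0.15. Signs turned with median-ratio scaling for ORC3 (0.029), ORC5 (0.061), ORC6 (0.125) and RPA1 (0.101), and with quantile normalization for ORC2 (0.005), ORC3 (0.058), ORC5 (0.089), ORC6 (0.161) and RPA1 (0.024). With 1 library left out, they also turned for ORC5 (-0.184 to 0.028), ORC6 (-0.095 to 0.129), POLA2 (-0.082 to 0.238) and POLD1 (-0.095 to 0.364). None of the turned values was past the threshold, and the cause was not tested. Over all genes the split moved from 4834 lower and 2322 higher to 3123 and 3365 with median-ratio scaling and to 3561 and 3014 with quantile normalization.

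With the replicate number as a replicate block 11 genes were lower, 9 of them among the 11 above (GINS3 and PRIM2 were lost, RAD51AP1 and RFC3 gained). Deviations of libraries with the same number correlated at 0.15, -0.02 and 0.18 over genes, so the numbers were not taken as pairs. Depth limits the low genes, such as EXO1 with 46 fragments and POLE2 with 80 over the later libraries.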
